A study of Mus musculus with 9 samples.

Results

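The collagen genes are the family that encodes the main structural proteins of bone, cartilage and bone marrow matrix. Here they are the genes whose mouse symbol has the form Col, a number, a, and a number, which gave 44 of the 52459 genes measured. Grouped by the kind of collagen they encode, 8 were fibrillar, 7 were cartilage collagens, 9 were basement membrane collagens and 20 were other types. Each gene has a single class, so the fiber-forming Col2a1, Col11a1 and Col11a2 counted as cartilage collagens and not as fibrillar. They were measured by bulk RNA sequencing of cells carrying the leptin receptor (LepR+ cells), a population that holds skeletal stem and progenitor cells. The cells were isolated by flow sorting, gated against blood cells, after collagenase digestion of mouse tibiae and femurs. All mice were C57B6. The 3 conditions were young mice of 12 weeks without treatment, middle-aged mice of 52 weeks without treatment, and middle-aged mice of 52 weeks given sodium salicylate, each with 3 libraries. No transgene or deletion was named for any condition, and the dose and duration of salicylate are not given in the sources used here. Whether the 3 libraries of a condition came from separate mice is not stated, so p-values measure the spread between these libraries.

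Collagens are built from chains that wind around each other into a triple helix, either as copies of one chain or as a mixture of chains from different genes. Fibrillar collagens assemble into the fibers that give bone and tendon tensile strength, with type I collagen as the organic framework of bone, whereas type IV collagen forms the sheet-like network of basement membranes. Cartilage carries its own set, in which types IX and XI decorate and template type II fibers and type X marks hypertrophic chondrocytes. Other members are fiber-associated collagens, beaded filament collagen VI, short chain collagens such as type VIII, and transmembrane collagens.

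Values are normalized counts, that is reads per gene divided by a size factor for each library. The libraries held 9902613 to 20746804 reads. The labelled cell type was checked by Lepr, which was at 89872, 78029 and 102235 in the young, 57603, 43099.5 and 14455 in the middle-aged and 65748, 59657 and 75958 in the treated libraries, and by Cxcl12, which was at 75974 to 570245 over the 9 libraries. Leukocyte markers were present throughout, with the sum of 7 pan-leukocyte genes at 2833 to 4193 in the young, 10551 to 18166 in the middle-aged and 8496 to 11387 in the treated libraries, with Ptprc at 413 to 1733 over the 9 libraries, and all 7 rose in the middle-aged libraries (limma, adjusted p-values under the call threshold of 0.05). Antibody genes took 0.107% to 0.479% of reads in the young libraries, 3.25%, 16.5% and 32.6% in the middle-aged libraries and 1.53% to 8.33% in the treated libraries. Middle-aged replicate 3 stood apart, with 2665 collagen reads against 30092 to 179471 in the other 8 libraries and at least 1 read of 24 collagens against 35 to 43. It also had the lowest Lepr value and the highest antibody share, so results that rest on it are given with and without it. In bulk RNA, fewer cells of a type and less RNA per cell cannot be told apart.

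The stretch just before a transcription start is shown for 4 genes on which the results turn, the fibrillar Col1a2 and Col3a1 and the cartilage genes Col11a1 and Col9a1. These genes had lower counts in the older libraries, and the sequence before that start can be read directly. Sequences are the 250 bases upstream of the RefSeq start in GRCm38.p6, 5′ to 3′ on the gene's own strand, which is the plus strand for all 4, and RefSeq windows matched 35 of the 44 collagens with 38 starts. Windows were not matched for Col1a1, Col2a1, Col5a2, Col4a3, Col12a1, Col14a1, Col22a1, Col26a1 and Col9a3. Capitals mark matches on either strand to 4 motifs, none of which contains another. The TATA box was searched as TATAAA. The CCAAT box was searched by the letters of its name, the GC box as GGGCGG, and the core recognized by SOX transcription factors as ACAAAG. The Col1a2 window is chr6:4505368-4505617, the Col3a1 window chr1:45311288-45311537, the Col11a1 window chr3:114030290-114030539 and the downstream of the Col9a1 windows chr1:24194953-24195202.
Col1a2: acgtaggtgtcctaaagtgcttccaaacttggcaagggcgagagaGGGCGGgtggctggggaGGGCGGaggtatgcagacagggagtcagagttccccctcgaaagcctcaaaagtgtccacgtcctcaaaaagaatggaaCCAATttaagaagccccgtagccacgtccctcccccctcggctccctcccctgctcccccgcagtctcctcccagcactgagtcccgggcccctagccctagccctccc
Col3a1: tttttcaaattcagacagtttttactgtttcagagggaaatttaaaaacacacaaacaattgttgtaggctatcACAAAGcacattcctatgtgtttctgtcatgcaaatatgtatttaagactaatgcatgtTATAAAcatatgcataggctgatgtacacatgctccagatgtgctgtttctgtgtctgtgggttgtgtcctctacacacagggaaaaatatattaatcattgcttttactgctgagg
Col11a1: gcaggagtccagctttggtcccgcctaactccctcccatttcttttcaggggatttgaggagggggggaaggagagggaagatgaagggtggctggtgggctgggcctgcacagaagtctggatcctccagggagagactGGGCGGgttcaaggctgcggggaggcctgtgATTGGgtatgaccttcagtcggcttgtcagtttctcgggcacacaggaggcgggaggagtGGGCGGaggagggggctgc
Col9a1: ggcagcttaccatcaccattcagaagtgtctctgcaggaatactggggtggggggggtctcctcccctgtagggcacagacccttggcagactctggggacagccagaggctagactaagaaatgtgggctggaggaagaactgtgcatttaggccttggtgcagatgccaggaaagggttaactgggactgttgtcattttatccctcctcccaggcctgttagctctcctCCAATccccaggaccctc
The Col1a2 window held a CCAAT box 109 bases before the start and a pair of GC boxes, and the Col11a1 window held a CCAAT box at 79 bases and GC boxes at 110 and 19 bases. The Col3a1 window held a TATAAA match at 117 bases and an ACAAAG match at 176 bases but neither of the other motifs, and the Col9a1 window shown held a CCAAT box at 18 bases. The other Col9a1 window, chr1:24177360-24177609, lies just before the annotated start of the gene and held none of the 4 motifs. Which Col9a1 start the counted reads came from was not tested. The GC box letters were found in 22 of the 38 collagen windows (57.9%) against 32.7% of all 32851 RefSeq windows of this length. The CCAAT box was found in 13 (34.2% against 33.8%), the TATA box in 5 (13.2% against 12.4%) and the SOX core in 4 (10.5% against 16.5%). These matches describe letters in the windows and were not tested as binding sites.

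Several collagen genes lie side by side in the genome. In the GENCODE M21 annotation of GRCm38, Col4a1 (chr8:11198423-11312826, minus strand) and Col4a2 (chr8:11312805-11449287, plus strand) point away from each other and share 22 bp of exon. Col4a3 and Col4a4 start 71 bp apart on chromosome 1, Col4a5 and Col4a6 start 1308 bp apart on chromosome X, and the 3′ ends of Col3a1 (chr1:45311538-45349706) and Col5a2 (chr1:45374321-45503282) are separated by 24614 bp. Whether reads were counted by strand is not given in the sources used here, so the shared bases of Col4a1 and Col4a2 cannot be assigned. Exons of Col10a1 overlapped Nt5dc1 on the opposite strand by 18 bp and those of Col9a3 overlapped Tcfl5 by 234 bp.

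LepR+ cells carried a collagen repertoire led by type I and type VIII genes, with genes of types VI, IV, V, XII and III also abundant. Summed over the 44 genes, collagens reached 82359.5, 107378 and 79887 normalized counts in the young libraries, 40774, 33473 and 7331 in the middle-aged and 39336, 38539 and 48292 in the treated libraries. Every young library was above every older library, treated replicates 1 and 2 lay between middle-aged replicates 2 and 1, and treated replicate 3 lay above both. Per kb of longest transcript, Col1a2, the α2 chain of type I collagen, led in all 3 conditions, at 6435 ± 486 normalized counts per kb in the young (mean ± SD, n = 3), 1970.3 ± 1266 in the middle-aged and 3140.2 ± 514 in the treated libraries. Behind it came Col1a1 (2346 ± 369 per kb in the young) and Col8a1 (1693 ± 414), then Col6a1 (842 ± 18.3) and Col6a2 (776 ± 122), whose levels differed by less than the SD of Col6a2. Col2a1, the type II collagen of cartilage, ranked 6 in the young libraries with 727 ± 821 per kb but 13 in the middle-aged and 18 in the treated libraries. Col3a1 ranked 8, 4 and 7 in the same order of conditions.

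**Figure D1:**
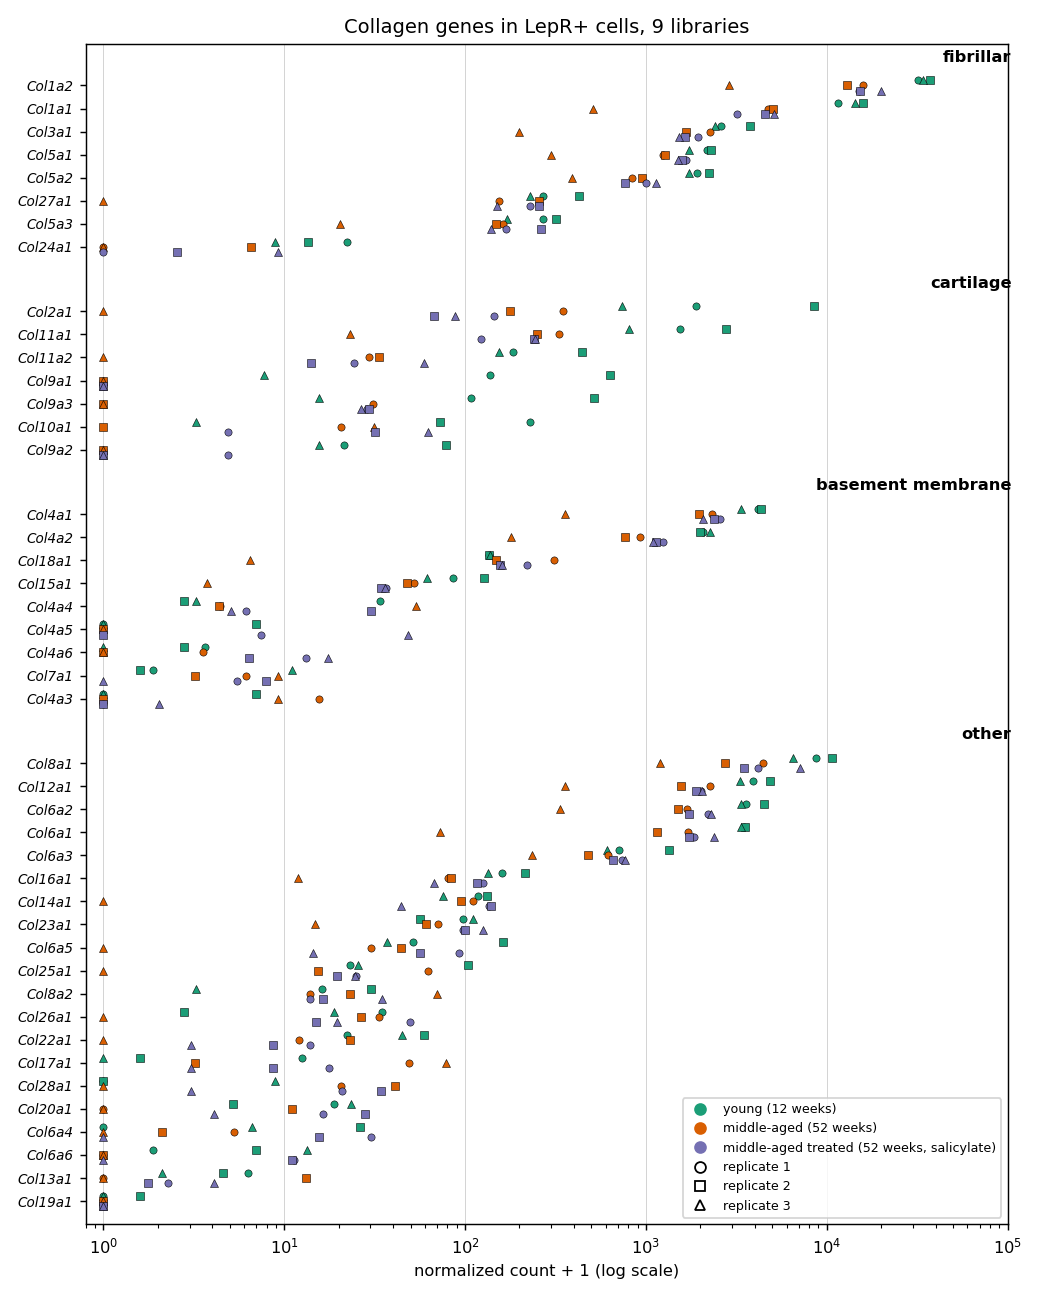
Each point is a library, each line a collagen gene grouped by class, and the horizontal axis is the normalized count plus 1 on a log scale. Col1a2 is highest in every library, and middle-aged replicate 3 (orange triangles) sits far to the left for most abundant collagens.

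The first question was how collagen expression differed between young and middle-aged LepR+ cells. Most of the tested collagens had lower counts in the middle-aged libraries. The gap was widest for the cartilage chains and smaller for the abundant fibrillar, type IV, type VI, type VIII and type XII genes. Of the 44 genes, 35 had a mean of at least 10 normalized counts and were tested. Col5a2 and Col11a1 fell at an adjusted p under 0.05 (limma on log2 of the normalized count plus 1, Benjamini-Hochberg over 14998 genes) and none rose, where 0.873% of all genes tested were called lower, 2.14% higher and 3.01% in either direction. An unadjusted p under 0.05 was found for 21 of the 35 and for 3509 of all 14998 genes. The fold change lay below 0 for 31 of the 35, with a median of -2.00 on the log2 scale against -0.08 over all genes, and 19 did not overlap between the conditions with the middle-aged libraries lower, where 15.1% of all genes did so. By class the median was -1.66 for 7 fibrillar, -1.75 for 5 basement membrane and -1.91 for 16 other genes, and -4.06 for 7 cartilage genes with Col9a1 and Col9a2 set at the limit of 3 reads per library in the middle-aged condition. Without middle-aged replicate 3 these medians were -0.71, -0.80, -0.75 and -3.05 in the same order. Col9a1 and Col9a2 passed the minimum only because the young libraries were high and had to differ, so these counts describe the 35 and not the whole family.

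The call itself depended on single libraries. Without middle-aged replicate 3, 14 collagens fell and none rose, where 2.62% of all genes tested were called lower and 2.88% higher, and the median was -1.02 against -0.03 over all genes. The 14 were Col1a1, Col1a2, Col5a1, Col5a2, Col2a1, Col9a1, Col11a1, Col11a2, Col4a1, Col4a2, Col6a1, Col6a2, Col8a1 and Col12a1. Without middle-aged replicate 1 there were 18, where 8.34% of all genes were called lower. Without young replicate 3 there was only Col9a1, which passed the minimum through the young libraries alone, where 0.02% were. Without any one of young replicates 1 and 2, middle-aged replicate 2 or the 3 treated libraries there were 0, where 28 to 299 of all genes were called in either direction. The same comparison fitted on its 6 libraries alone also called 0, where 0.307% of all genes were called. In contrast, DESeq2 on the recovered reads called 12 lower, where 4.12% of all genes were, 11 of them among the 14. Col9a1, among the 14 and the 12, and Col9a2, among the 12, had no middle-aged read. Both passed the minimum only through the young libraries and had to differ.

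**Figure D2:**
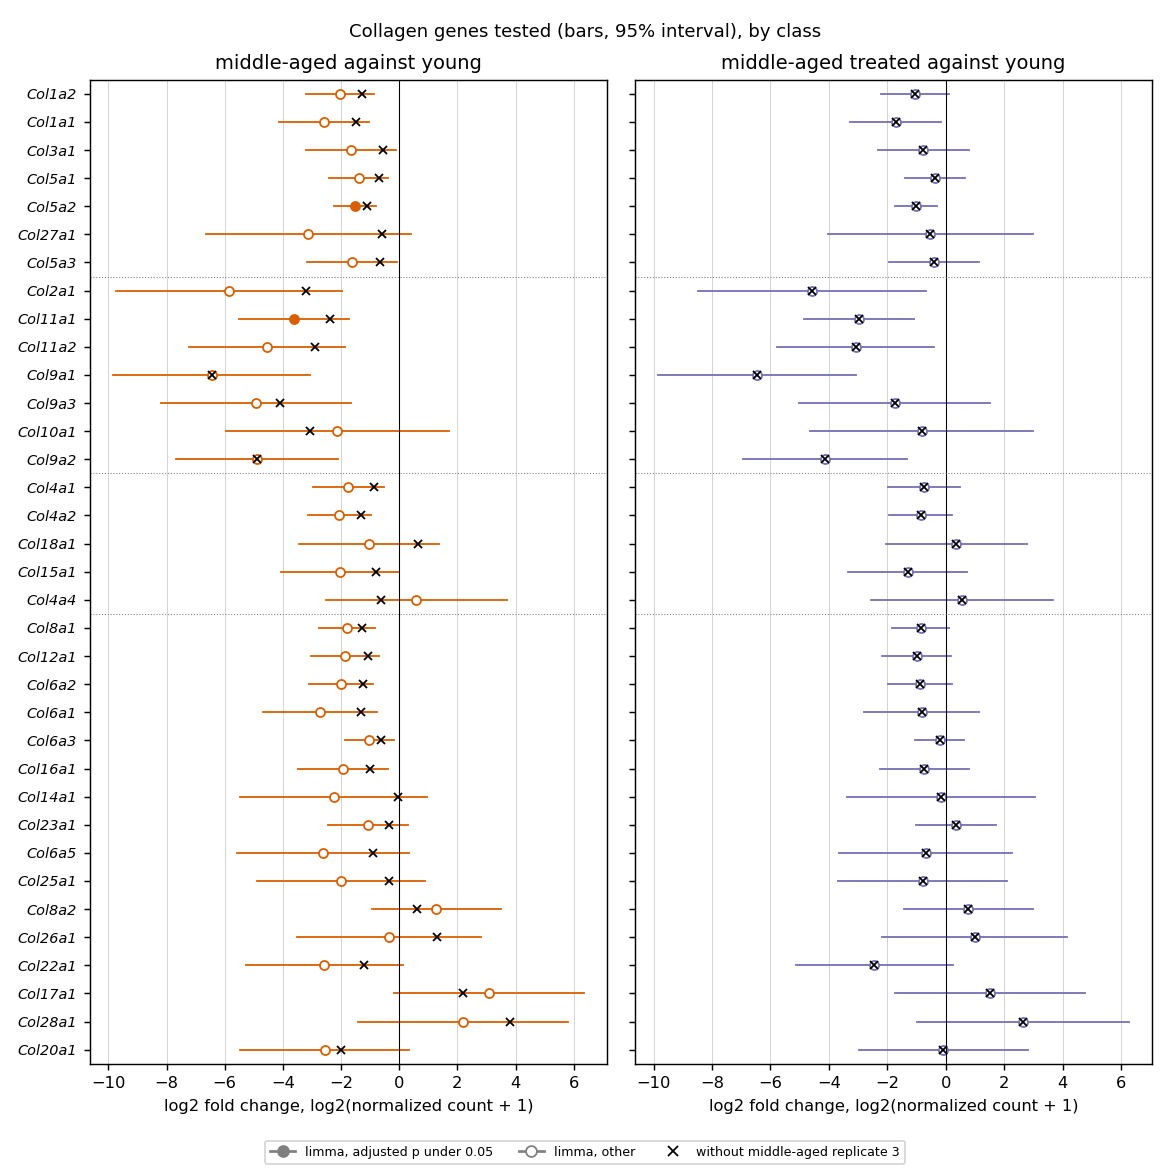
Circles give the limma log2 fold change of each tested collagen against the young libraries and bars its 95% interval, filled where the adjusted p was under 0.05, and crosses give the value without middle-aged replicate 3. In the left panel most crosses lie nearer to 0 than the circles, and the fitted values of Col9a1 and Col9a2 depend on the added count of 1 because no middle-aged library had a read.

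Among the fibrillar genes, type I collagen carried most of the counts. Col1a2 was at 32024, 37179 and 34047 in the young, 15786, 12932 and 2894 in the middle-aged and 15125, 15290.5 and 19965 in the treated libraries. Col1a1, which encodes the α1 chain, was at 11516, 15802 and 14415 in the young, 4724, 5026 and 506 in the middle-aged and 3189, 4555 and 5078 in the treated libraries. For both chains every young library was above every older library, with the lowest value in middle-aged replicate 3. Col1a1 differed by -2.59 between middle-aged and young cells on the log2 scale (SE 0.70, limma, adjusted p = 0.0723) and fell by 1.50 without middle-aged replicate 3 (SE 0.21, adjusted p = 0.00224). Col1a2 differed by -2.03 (SE 0.53, adjusted p = 0.0641) and fell by 1.27 without that library (SE 0.18, adjusted p = 0.00232).

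Col5a2, the α2 chain of type V collagen, which sits inside type I fibers and limits their diameter, was at 1924, 2228 and 1719.9 in the young, 840.3, 946 and 388 in the middle-aged and 999, 770.4 and 1141 in the treated libraries. The middle-aged and young libraries did not overlap. Col5a2 fell by 1.53 on the log2 scale (SE 0.33, limma, adjusted p = 0.0378), and by 1.13 without middle-aged replicate 3 (adjusted p = 0.00902), but the adjusted p was 0.106 with the 2 conditions alone. Its partner Col5a1, the α1 chain, was at 2168, 2297 and 1726 in the young, 1243, 1269 and 297 in the middle-aged and 1675, 1576 and 1509.7 in the treated libraries. The young and middle-aged libraries of Col5a1 did not overlap, and its difference was -1.40 (SE 0.46, adjusted p = 0.119), and it fell by 0.71 without middle-aged replicate 3 (adjusted p = 0.0411).

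Type III collagen, the fiber of distensible connective tissue and early repair matrix, was carried by Col3a1, which was at 2605, 3778 and 2397 in the young, 2259, 1659.6 and 198 in the middle-aged and 1933, 1639 and 1517 in the treated libraries. All older libraries lay below the young ones, with middle-aged replicate 1 close to the lowest young library, and the middle-aged difference of -1.66 (SE 0.70, limma, adjusted p = 0.189) shrank to -0.57 without middle-aged replicate 3 (adjusted p = 0.164). The remaining fibrillar genes were low, with Col5a3 and Col27a1 at 139 to 424 normalized counts outside middle-aged replicate 3 and Col24a1 under the minimum at 0 to 21.3. Neither Col5a3 nor Col27a1 passed the test.

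The cartilage collagens had the widest class difference by median. Col2a1 was at 1895, 8499.5 and 735 in the young, 349, 177 and 0 in the middle-aged and 144, 66.5 and 87.3 in the treated libraries. Col11a1, a chain of the type XI collagen that sets the width of cartilage fibers, was at 1534, 2765 and 811 in the young, 329, 248 and 22 in the middle-aged and 121, 239 and 243 in the treated libraries. For both genes all young libraries were above all older libraries, and young replicate 2 was the highest by far. Col11a1 fell by 3.61 on the log2 scale (SE 0.86, limma, adjusted p = 0.0498), and by 2.40 without middle-aged replicate 3 (SE 0.43, adjusted p = 0.00716). Col2a1 differed by -5.85 (SE 1.77, adjusted p = 0.0946) and fell by 3.19 without that library (adjusted p = 0.0209).

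Type IX collagen, which coats type II fibers, was counted mainly in the young libraries. Col9a1 was at 136, 629 and 6.74 in the young libraries, from 1211 reads, and had no read in any of the 6 older libraries. Set against a limit of 3 reads per library, its mean was at least 54.5-fold lower in the middle-aged and at least 105-fold lower in the treated libraries, although young replicate 3 with 6.74 normalized counts was near that limit. The young mean rested mostly on replicate 2, and without it these bounds were 15.1-fold and 29.2-fold. Col9a2 was at 20.4, 77.2 and 14.6 in the young libraries with no read in the middle-aged ones, at least 7.92-fold lower (3.71-fold without young replicate 2), and at 3.87, 0 and 0 in the treated libraries. Col9a3 was at 107, 519 and 14.6 in the young, 30, 0 and 0 in the middle-aged and 27.8, 28.6 and 25.7 in the treated libraries, so a treated library could exceed the lowest young one. Col11a2, the partner chain of Col11a1, was at 184, 441 and 153 in the young, 28.3, 32.3 and 0 in the middle-aged and 23.2, 13.1 and 58.5 in the treated libraries and did not overlap between young and older libraries. Col10a1, the hypertrophic chondrocyte collagen, was at 227, 71.8 and 2.25 in the young, 19.7, 0 and 30.3 in the middle-aged and 3.87, 30.9 and 61.6 in the treated libraries, which overlapped throughout.

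Markers of chondrocytes other than collagens were also followed. Of 8 tested chondrocyte markers outside the collagen family, Acan, Hapln1, Matn3 and Ucma fell in the middle-aged libraries (limma). Matn3 and Ucma passed the minimum mean only through the young libraries, so their fall was bound to be found. The sum of the 9 measured markers was at 2206 to 8719.7 in the young, 195 to 2148 in the middle-aged and 1398 to 1631 in the treated libraries, highest in young replicate 2. Acan, the defining cartilage proteoglycan, was at 201, 639 and 68.5 in the young, 19.7, 8.9 and 0 in the middle-aged and 11, 7.73 and 14.4 in the treated libraries, and Matn1, a cartilage matrilin, was at 0 in 8 of the 9 libraries. Sox9, the chondrocyte transcription factor, was at 773, 679.7 and 574 in the young, 463, 689 and 52.3 in the middle-aged and 384, 409.6 and 582 in the treated libraries, with middle-aged replicate 2 and treated replicate 3 within the young range. The part of chondrocyte content in the cartilage collagen differences was not tested.

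The basement membrane collagens were dominated by type IV chains α1 and α2, the pair that forms the ubiquitous type IV network. Col4a1 was at 4166, 4352 and 3354 in the young, 2315, 1959 and 355 in the middle-aged and 2565, 2375 and 2062 in the treated libraries. Col4a2 was at 2073, 2003 and 2258 in the young, 929, 769.8 and 179 in the middle-aged and 1247, 1139.8 and 1091 in the treated libraries. All older libraries were below all young ones for both chains, and middle-aged and young cells differed by -1.75 for Col4a1 (SE 0.56, limma, adjusted p = 0.109) and -2.06 for Col4a2 (SE 0.49, adjusted p = 0.0504). Without middle-aged replicate 3 both fell, by 0.88 (adjusted p = 0.0146) and 1.32 (adjusted p = 0.00224).

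Col18a1, which carries the endostatin fragment at its end, behaved unlike the other abundant collagens. It was at 135, 135 and 137 in the young, 308, 147 and 5.5 in the middle-aged and 219, 155 and 158 in the treated libraries. The 5 older libraries other than middle-aged replicate 3 lay above all young libraries, and the log2 difference between middle-aged and young changed sign from -1.04 (SE 1.09, limma, adjusted p = 0.589) to 0.64 without that library (adjusted p = 0.351). Its relative Col15a1, which also releases an anti-angiogenic fragment, was at 84.4, 126 and 60.6 in the young, 51.4, 46.7 and 2.75 in the middle-aged and 35.5, 33.2 and 34.9 in the treated libraries. Here the direction was the opposite one, with every older library below every young one, although the difference of -2.05 was not called (SE 0.92, adjusted p = 0.21) and was -0.80 without middle-aged replicate 3 (adjusted p = 0.418). The kidney and lens chains Col4a3, Col4a5 and Col4a6 and the anchoring fibril collagen Col7a1 stayed under the minimum mean, and Col4a4 ranged from 1.79 to 52.3 without order. Endothelial markers, from a cell type rich in type IV collagen, summed to 304 to 835, 462 to 583 and 415 to 560.3 in the same order of conditions, with none of 8 tested called and Pecam1 at 95, 108 and 211 in the young, 79.7, 117 and 195 in the middle-aged and 184, 211 and 68.8 in the treated libraries, and their part in these values was not tested.

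Type VI collagen, which forms beaded filaments around cells, was expressed through Col6a1, Col6a2 and Col6a3. Col6a1 was at 3476, 3514 and 3369 in the young, 1708, 1146 and 71.5 in the middle-aged and 1841, 1726 and 2371 in the treated libraries. Col6a2 was at 3598, 4488 and 3344 in the young, 1694, 1496 and 336 in the middle-aged and 2193, 1720.2 and 2278 in the treated libraries. Col6a3 was at 710.4, 1341 and 612 in the young, 620.2, 475 and 234 in the middle-aged and 737, 659.9 and 769 in the treated libraries. Col6a1 and Col6a2 did not overlap between young and older libraries, whereas middle-aged replicate 1 lay within the young range of Col6a3. Between middle-aged and young cells the log2 difference was -2.73 for Col6a1 (SE 0.89, limma, adjusted p = 0.116), -1.99 for Col6a2 (SE 0.50, adjusted p = 0.0579) and -1.03 for Col6a3 (SE 0.38, adjusted p = 0.148). Without middle-aged replicate 3, Col6a1 fell by 1.30 (adjusted p = 0.00393) and Col6a2 by 1.25 (adjusted p = 0.0036), and the value for Col6a3 was -0.62 (adjusted p = 0.25). The alternative chains Col6a4 and Col6a6 were under the minimum, and Col6a5 was at 0 to 162.

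Col8a1, a short chain collagen known from vessel walls and the cornea, was among the most abundant collagens of these cells, at 8710.3, 10731 and 6499 in the young, 4448, 2738 and 1197 in the middle-aged and 4169, 3507 and 7087 in the treated libraries. Treated replicate 3 lay within the young range while the middle-aged libraries did not, and the middle-aged difference was -1.79 (SE 0.44, limma, adjusted p = 0.0561), and Col8a1 fell by 1.28 without middle-aged replicate 3 (adjusted p = 0.0238). Its partner Col8a2 was at only 2.25 to 68.8. Col12a1, a fiber-associated collagen that binds type I fibers, was at 3921, 4841 and 3303 in the young, 2273, 1563 and 358 in the middle-aged and 2024, 1895 and 2052 in the treated libraries. All older libraries were below the young ones. Col12a1 differed by -1.87 between middle-aged and young cells (SE 0.53, adjusted p = 0.0833) and fell by 1.08 without middle-aged replicate 3 (SE 0.21, adjusted p = 0.0101). Col14a1, the related fiber-associated chain, was at 116, 131 and 74.1 in the young, 109.7, 94.5 and 0 in the middle-aged and 134, 139 and 43.1 in the treated libraries, which overlapped across conditions, and its middle-aged difference of -2.26 (adjusted p = 0.367) was -0.033 without middle-aged replicate 3. Among the remaining 10 genes, Col16a1 and Col23a1 ranged from 11 to 212, the 6 sparse genes Col17a1, Col20a1, Col22a1, Col25a1, Col26a1 and Col28a1 from 0 to 104, and Col13a1 and Col19a1 were under the minimum. None of these 10 passed the test in any of the 3 comparisons.

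The second question was how the treated cells compared with each untreated condition. These comparisons share libraries with the first and with each other, so their values are given side by side and not as independent evidence. In treated cells no collagen differed from the middle-aged libraries at an adjusted p under 0.05 by limma, where 0% of the 14998 genes tested were called. An unadjusted p under 0.05 was found for 4 of the 35 collagens and 1464 of the 14998 genes. edgeR's quasi-likelihood test on recovered reads called no gene, and DESeq2 called 44 genes (0.293%) but no collagen. The median difference of 1.03 over the 35 collagens (0.09 over all genes) was 0.13 without middle-aged replicate 3. Col4a2, Col5a1, Col6a1, Col6a2, Col6a3 and Col23a1 were higher in all 3 treated libraries than in all 3 middle-aged ones, where 8.19% of all genes were.

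Against the young libraries, no collagen was called in treated cells, where 0.207% of all genes tested were called and 0 genes were called lower. By unadjusted p, 7 of the 35 collagens and 1037 of the 14998 genes were under 0.05. The treated libraries were nevertheless all below the young libraries for 18 of the 35 collagens, where 9.9% of all genes were, and all above them for Col18a1, where 8.99% were. The median difference was -0.79 over the 35 and -0.01 over all genes. When the treated and young libraries were fitted alone, 12 collagens fell, where 0.991% of all genes were called lower, and the same 12 fell in the fit of all conditions without middle-aged replicate 3, where 0.776% were. These 12 were Col1a1, Col1a2, Col5a2, Col2a1, Col9a1, Col11a1, Col11a2, Col4a1, Col4a2, Col6a1, Col6a2 and Col12a1. Here too Col9a1, among the 12 and the 18, and Col9a2, among the 18, passed the minimum only through the young libraries and had to differ. Col22a1, also among the 18, averaged 41.2 in the young, 11.1 in the middle-aged and 7.56 in the treated libraries. The young libraries lifted it over the minimum as well, so its place among the 18 is not free of that filter. DESeq2 called 3 lower, where 0.26% of all genes were, the cartilage genes Col2a1, Col11a1 and Col11a2.

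Treated and young cells differed by -1.72 for Col1a1 on the log2 scale (SE 0.70, limma, adjusted p = 0.641, and 0.000762 with the 2 conditions alone). The difference was -2.97 for Col11a1 (SE 0.86, adjusted p = 0.304 and 0.00249) and -4.58 for Col2a1 (SE 1.77, adjusted p = 0.589 and 0.00315). Col5a1 differed by -0.37 (SE 0.46, adjusted p = 1 and 0.327) and Col6a3 by -0.21 (SE 0.38, adjusted p = 1 and 0.791), with 95% intervals of -1.39 to 0.65 and -1.06 to 0.63. Between treated and middle-aged cells the interval for Col1a1 ran from -0.68 to 2.42 around 0.87, which turned to -0.22 without middle-aged replicate 3.

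The share of each class in the collagen counts of a library does not depend on the scaling between libraries. Fibrillar collagens took most of the counts in every library, at 62.6% ± 5.42 in the young (SD, n = 3), 62.3% ± 3.91 in the middle-aged and 61.2% ± 1.95 in the treated libraries (exact permutation test over 1680 arrangements, p = 0.918, also after adjustment). Cartilage collagens took 4.98, 12.1 and 2.17% of collagen counts in the young libraries, 1.85, 1.37 and 0.713% in the middle-aged and 0.824, 0.981 and 0.987% in the treated libraries. All young libraries were above all older ones (exact permutation test, two-sided, p = 0.0143, 0.0571 after adjustment over 4 classes), but young replicate 2 alone set much of the young mean. The adjusted p was 0.157 without middle-aged replicate 3. Divided by transcript length it was 0.0286, and without young replicate 2 and middle-aged replicate 3 it was 0.0381. Basement membrane collagens took 7.12% ± 0.868, 8.66% ± 0.295 and 9.07% ± 1.76 (SD, n = 3, exact permutation test, adjusted p = 0.267), and 0.0143 without treated replicate 3. Other collagens took 23.8% ± 1.71, 27.7% ± 4.42 and 28.8% ± 2.43 (adjusted p = 0.267 by the same exact test). With 3 libraries against 3, no pairwise exact test could go below 0.1.

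**Figure D3:**
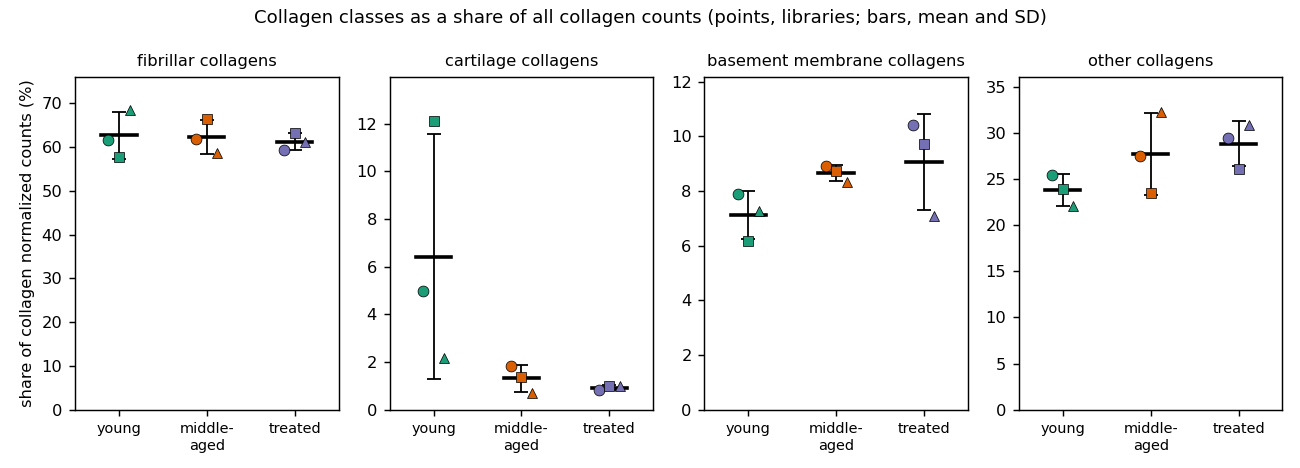
Each panel shows the share of a library's collagen normalized counts taken by 1 class, with points for libraries and bars for the mean and SD of 3 libraries, and vertical axes that start at 0 and differ between panels. The cartilage share was 2.17% to 12.1% in the young libraries and 0.713% to 1.85% in the 6 older libraries.

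Because markers of the LepR+ stroma itself had lower counts in the older libraries, collagens were also set against 12 niche markers, among them Lepr, Cxcl12 and Kitl. None of the 12 was called between middle-aged and young cells, and 10 fell without middle-aged replicate 3 (limma). These 12 markers summed to 725947 to 906600 in the young, 124418 to 518818 in the middle-aged and 532458 to 676453 in the treated libraries. As a percentage of that sum, all collagens together were at 11.4% ± 3.06 in the young, 7.36% ± 1.29 in the middle-aged and 7.22% ± 0.0788 in the treated libraries (SD, n = 3), and each young library was above each older one. On the log2 scale against the geometric mean of the markers, cartilage collagens were at -2.45, -0.66 and -3.72 in the young, -4.20, -4.67 and -6.10 in the middle-aged and -5.45, -5.35 and -5.24 in the treated libraries. Basement membrane collagens were at -1.79, -1.63 and -1.98 in the young, -1.94, -1.99 and -2.55 in the middle-aged and -1.79, -2.04 and -2.40 in the treated libraries, which overlapped.

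Refitted with counts scaled by the niche markers, the median collagen difference between middle-aged and young cells was -0.60 while that of all genes moved to 1.32, and Col11a1 and Col9a1 were the 2 collagens that fell, where 0.175% of all genes did. Col9a1 had no read in any older library and passed the minimum only through the young ones, so Col11a1 alone carries that count. Without middle-aged replicate 3 on that scale, Col1a1 fell by 0.72 (limma, adjusted p = 0.0239), Col2a1 fell by 2.41 (adjusted p = 0.0263), Col11a1 fell by 1.62 (adjusted p = 0.0161), and Col11a2 and Col9a1 also fell, where 0.516% of all genes were called lower. Col18a1 rose by 1.42 (adjusted p = 0.0171) and the sparse Col28a1 rose by 4.17 (adjusted p = 0.0402), where 25.9% of all genes were called higher. The type IV, type VI and type VIII genes were not called on this scale. Col5a2, called before this scaling, was not called either. It differed by -0.13 with niche scaling (limma, adjusted p = 0.794) and by -0.34 without middle-aged replicate 3 as well (adjusted p = 0.305). Between middle-aged and young cells, the sign turned for Col6a3 with niche scaling and for Col18a1 with niche scaling or without that library, and for Col3a1, Col5a1 and Col14a1 in the combination of both. That combination was chosen after the data were seen.

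**Figure D4:**
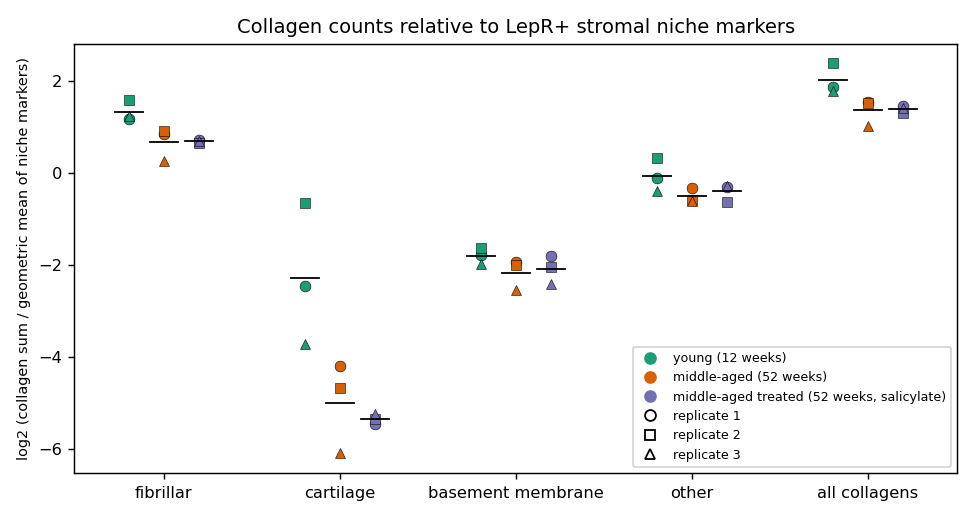
Points give the log2 ratio of each class's summed normalized counts to the geometric mean of 12 LepR+ stromal niche markers in each library, and black lines the mean of 3 libraries. The cartilage class shows the widest gap, with means of -2.28 in the young, -4.99 in the middle-aged and -5.35 in the treated libraries, while basement membrane points overlap at means of -1.80, -2.16 and -2.08.

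Ratios of chains within a library were compared for 10 pairs, some of the same collagen type and some of different types. None differed over the 3 conditions after adjustment over the 10. The lowest p was for Col3a1 over Col1a1, at a log2 ratio of -2.14, -2.06 and -2.59 in the young, -1.06, -1.60 and -1.35 in the middle-aged and -0.72, -1.47 and -1.74 in the treated libraries (exact permutation test, p = 0.0429, adjusted p = 0.268). All 6 older libraries, including middle-aged replicate 3, had a higher ratio of Col3a1 to Col1a1 than any young library. Col3a1 was not set against Col1a2, the more abundant type I chain, so this is not a ratio of type III to type I as a whole. Col1a1 over Col1a2 was below 0 in all 9 libraries, at -1.48, -1.23 and -1.24 in the young, -1.74, -1.36 and -2.51 in the middle-aged and -2.25, -1.75 and -1.98 in the treated libraries. Per kb of the longest transcript Col1a2 was 2.76-fold above Col1a1 in the young libraries, and per kb of all annotated exons 1.32-fold, so the size of that gap depends on the length used although its sign did not in any library.

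Col4a1 exceeded Col4a2 in every library on both length scales, by a log2 ratio of 0.90 ± 0.29 in the young, 1.22 ± 0.20 in the middle-aged and 1.01 ± 0.08 in the treated libraries before length was taken into account (SD, n = 3, exact permutation test, adjusted p = 0.388). Col5a1 over Col5a2 was at 0.17, 0.044 and 0.0047 in the young, 0.56, 0.42 and -0.38 in the middle-aged and 0.74, 1.03 and 0.40 in the treated libraries, with the treated libraries above the young ones (exact permutation test, adjusted p = 0.321). Col6a1 over Col6a2 lay between -0.38 and 0.06 in every library but middle-aged replicate 3, where it was -2.21. Col6a3 over Col6a1 and Col14a1 over Col12a1 also took their extreme value in that library. Col11a1 over Col1a1 was at -2.91, -2.51 and -4.15 in the young, -3.84, -4.34 and -4.46 in the middle-aged and -4.70, -4.25 and -4.38 in the treated libraries, so young replicate 3 overlapped the older ones. Adjusted p-values of the 10 pairs ran from 0.268 to 0.796, and from 0.0952 to 0.743 without middle-aged replicate 3.

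**Figure D5:**
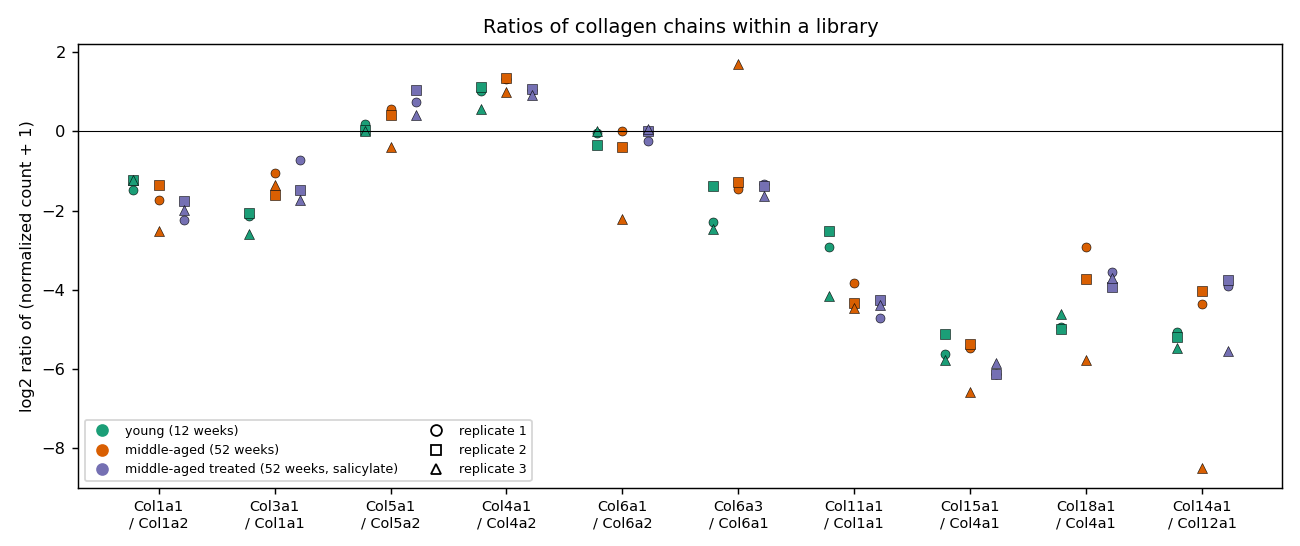
Each point is the log2 ratio of a pair of collagen genes in 1 library, with 0 marking equal normalized counts, for 10 pairs. Col3a1 over Col1a1 lies between -2.59 and -2.06 in the young and between -1.74 and -0.72 in the 6 older libraries.

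Genes that fold, export, cut and crosslink collagen were also followed, since a chain reaches the matrix only after these steps. Of 18 folding and modification genes, 1 fell in the middle-aged libraries and none rose (median log2 difference -1.06, and -0.73 without middle-aged replicate 3). In this fit 0.873% of all genes were called lower and 2.14% higher. P3h1, a prolyl 3-hydroxylase of the collagen chains, was at 558, 587 and 660.1 in the young, 277, 210.2 and 138 in the middle-aged and 481, 417 and 510.4 in the treated libraries and fell by 1.58 (SE 0.29, limma, adjusted p = 0.0236) and by 1.31 without middle-aged replicate 3 (adjusted p = 0.00792). The middle-aged libraries lay below all others for P3h1. P4hb, the disulfide isomerase subunit of prolyl 4-hydroxylase, had the highest mean of the list and differed by -0.012 (SE 0.24, adjusted p = 0.98), and the collagen chaperone Serpinh1 by -1.60 (SE 0.51, adjusted p = 0.108).

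Of 9 tested genes of export and propeptide removal, 1 fell, with a median of -1.57 that was -0.26 without middle-aged replicate 3. Adamts2, which removes the amino-terminal propeptide of types I, II and III, was at 6791, 7146 and 6929 in the young, 2893, 1889.9 and 512 in the middle-aged and 3166, 2955 and 3385 in the treated libraries. All older libraries were below the young ones, and Adamts2 fell by 2.30 (SE 0.49, limma, adjusted p = 0.0372) and by 1.57 without middle-aged replicate 3 (adjusted p = 0.00122), while the enhancer of carboxyl propeptide cleavage Pcolce differed by -1.64 (adjusted p = 0.0858). Of 5 crosslinking genes, Loxl2 fell by 1.62 (SE 0.34, adjusted p = 0.036) and by 1.20 without middle-aged replicate 3 (adjusted p = 0.00955), with values of 894, 763 and 675 in the young, 331, 341 and 140.3 in the middle-aged and 518, 417 and 467 in the treated libraries. Lox, the lysyl oxidase with the highest mean, differed by -1.39 (adjusted p = 0.0995) and Loxl1, with the next highest mean, by -1.66 (adjusted p = 0.0798). None of 11 receptors and uptake genes was called, and the integrin chains Itgb1 and Itga1, with the highest means, differed by -1.07 and -1.55. Without middle-aged replicate 3, 3 of 18 folding, 3 of 9 export and 3 of 5 crosslinking genes fell, where 2.62% of all genes were called lower. Of the 11 receptors and uptake genes, Itga1 fell and Lair1 rose, where 2.88% of all genes were called higher. None of the genes in these 4 lists was called between treated and middle-aged libraries. Between treated and young libraries none was called either. Without middle-aged replicate 3, 1 each of the export, crosslinking and receptor genes fell, where 0.776% of all genes were called lower.

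Markers of other matrix-forming cells went in both directions. Osteoblast genes other than collagens summed to 52216 to 65605 in the young, 8263 to 29806 in the middle-aged and 35268 to 38759 in the treated libraries. The defining marker Bglap was at 103, 171 and 167 in the young, 16.3, 22.2 and 0 in the middle-aged and 21.3, 44 and 11.3 in the treated libraries, and 1 of 7 tested osteoblast genes, Ibsp, fell in the middle-aged libraries, while Phex, an osteocyte endopeptidase, was at 2614, 2725 and 2763 in the young, 4155, 3735 and 1084 in the middle-aged and 4180.2, 5894 and 6336 in the treated libraries. Tendon and fibroblast markers summed to 1809 to 2466, 2321 to 10431 and 1337 to 2775, where Ly6a rose by 4.32, Pi16 rose by 2.78 and Fmod fell by 2.08 between young and middle-aged cells (limma, adjusted p = 0.027, 0.0337 and 0.0366), and the tendon marker Tnmd was at 62.2, 9.57 and 38.2 in the young, 6, 31.1 and 5.5 in the middle-aged and 23.9, 0 and 1.03 in the treated libraries. Ly6a was highest in middle-aged replicate 3, which set most of the middle-aged maximum. Mural cell markers summed to 902 to 1429, 261 to 739 and 806 to 977 with none of 7 called, and the smooth muscle myosin Myh11 was at 33.7, 26.9 and 75.2 in the young, 21.4, 4.45 and 2.75 in the middle-aged and 34.2, 12.4 and 36 in the treated libraries. B lineage markers summed to 1574 to 3312, 9985 to 58826 and 6164 to 41596, with Cd79a at 62.2, 27.5 and 37 in the young, 251, 46.7 and 564 in the middle-aged and 128, 54.9 and 279 in the treated libraries. The part of these cells in the collagen values was not tested.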

How the data were processed

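The deposited table gave a normalized read signal per gene symbol and library. Per the labels, the authors demultiplexed reads with bcl2fastq, aligned them with STAR to mm10 (GRCm38), counted genes with featureCounts and normalized with DESeq2, and versions, annotation and strand setting are not given in the sources used here. Size factors recovered from the steps between low values turned 100% of the deposited values into whole reads (within 0.1).

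Genes with a mean of at least 10 (14998 of 52459) were log2-transformed after adding 1 and fitted over all 9 libraries with a mean-variance trend (limma 3.58.1, R 4.3.3), and called at a Benjamini-Hochberg adjusted p under 0.05. edgeR 4.0.16 (quasi-likelihood) and DESeq2 1.42.0 were run on the recovered reads. For middle-aged against young cells they called 0 and 12 collagens. Class shares and chain ratios were compared by exact permutation of the one-way F statistic over 1680 arrangements, two-sided, and adjusted over 4 classes and 10 ratios. Fold changes on this log2 scale can understate or overstate differences of low genes. Between middle-aged and young cells, Col9a1 was at -6.45 by limma and -9.97 by DESeq2. Col14a1, with a zero in middle-aged replicate 3, was at -2.26 by limma and -0.63 by DESeq2. The median over the 35 collagens was -2.00 by limma and -1.49 by DESeq2. Counting limits of 3 reads cover counting error only. Gene positions came from GENCODE M21 and promoter windows from RefSeq. The fit was tested on simulated data.

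The collagens named with values in each library are those called in a comparison, the 2 highest of each class and the chains of the 10 ratios (17 in all), and a few others were named after their values were seen. The members, marker lists and tests were chosen with earlier results of these data known.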

Additional observations from a re-analysis of the deposited data

How the results depend on the processing

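The number of collagens called between middle-aged and young libraries was 2 as reported. It was 1 with a pseudocount of 0.5, with TMM scaling, without the variance trend and with robust variances. It was 5 with a pseudocount of 5, 6 with upper quartile scaling, and 12 with DESeq2, where 4.12% of all genes were called lower. With niche marker scaling and no middle-aged replicate 3 it was 7, of which 5 fell and 2 rose. In that run 0.516% of all genes were called lower and 25.9% higher. Outside that run every collagen called fell. The number was 0 without a filter, with scaling by library total, with the 2 conditions alone and with edgeR. Leaving out 1 library gave 0 to 18. Between treated and young libraries, 0 as reported, it was 12 with the 2 conditions alone, 3 with DESeq2, 6 with niche scaling and no middle-aged replicate 3, and 0 to 12 with 1 library left out. All of these collagens fell. In the first 3 of these runs 148, 39 and 24 of all genes were called lower. Between treated and middle-aged libraries it was 0 in every alternative run. Over all genes, the 452 calls between middle-aged and young became 234 without a filter, 68 with library totals, 1894 with niche scaling, 78 without the trend, 46 with the 2 conditions alone, 1656 with DESeq2, 3839 with niche scaling and no middle-aged replicate 3, and 28 to 2126 with 1 library left out. The 31 calls between treated and young became 16, 18, 15, 19, 429, 299 and 820 in that order and 2 with edgeR, and 4 to 379 with 1 library left out. The 0 calls between treated and middle-aged became 1 without the trend and 44 with DESeq2. Both pseudocounts, TMM and upper quartile scaling, robust variances and edgeR moved the 452 by a smaller ratio than any run listed for it. With the replicate number as a block, 1 collagen and 284 genes were called between middle-aged and young, 0 collagens and 26 genes between treated and young, and 0 genes between treated and middle-aged, and the lowest adjusted p of a chain ratio was 0.0893. Deviations of same-numbered libraries from their condition means correlated at -0.012 to 0.123. These correlations cannot settle whether such libraries share a batch, and the labels give only the number. For the cartilage share the adjusted p of 0.0571 was 0.0286 per exonic length and per longest transcript, 0.0381 without young replicate 2 and middle-aged replicate 3, and 0.0571 to 0.271 with 1 library left out. For the basement membrane share it was 0.0143 to 0.562 with 1 library left out. Signs turned between middle-aged and young for Col18a1, to 0.29 with niche scaling, 0.23 with edgeR, 0.19 with DESeq2, 1.42 with niche scaling and no middle-aged replicate 3, and -2.14 to 0.64 with 1 library left out. With niche scaling and no middle-aged replicate 3, Col14a1 turned to 0.74, Col3a1 to 0.22, Col5a1 to 0.077 and Col6a3 to 0.16, and Col6a3 to 0.37 with niche scaling alone. Between treated and young, niche scaling with or without that library turned Col14a1 to 0.31, Col5a1 to 0.10 and Col6a3 to 0.26, and leaving out 1 library gave -0.45 to 0.39 for Col14a1 and -0.44 to 0.13 for Col6a3. The cause of these changes was not tested. With 3 libraries a condition the intervals are wide, from -0.68 to 2.42 on the log2 scale for Col1a1 between treated and middle-aged, and sparse collagens rest on few reads.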
